A study of Mus musculus with 24 samples.

Results

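Hepatocytes make bile acids from cholesterol, couple them to taurine or glycine, pump them into bile and take them back up from portal blood. Cyp7a1 opens the classical route and is held down by the bile acid receptor FXR (Nr1h4) through the repressor SHP (Nr0b2), while Cyp8b1 sets the share of 12-hydroxylated bile acids. In liver, Cyp7a1 is also known for a daily rhythm that the clock output factor DBP drives.

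The 10 genes of bile acid synthesis and transport described here (Cyp7a1, Cyp8b1, Cyp27a1, Cyp2c70, Slc27a5, Baat, Nr1h4, Nr0b2, Slc10a1 and Abcb11) were taken by gene name from the 55421 rows of the gene count table, and all 10 were found and passed the filter on low counts. They were measured by polyA RNA-seq in hepatocytes of 24 male mice, with 6 mice in each of 4 groups. Young mice were C57BL/6N and 6 months old and old mice were C57BL/6J and 24 months old by the sample labels, so substrain and age cannot be told apart in what follows. Normal diet (ND) was a Teklad chow with 18% protein by the labels, and high-fat diet (HFD) was 58y1 of TestDiet with 60% of energy from fat, each fed ad libitum for 9 weeks. The paper gives other ages and another ND, and the labels are followed here. All mice were killed with CO2 and perfused with collagenase in 2 steps, and the 4 groups (young ND and young HFD, old ND and old HFD) differ in no other stated treatment.

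The counts summed to between 9200332 and 22185069 per mouse. The titles name 2 batches with 3 mice of each group in each, except old ND with 2 mice in batch 1 and 4 in batch 2. Alb, a hepatocyte marker, was at 29000 to 128000 CPM (TMM-scaled counts per 1000000 counts of a library). Of 8 hepatocyte markers, 3 (Hnf4a, Cps1 and Tat) were lower and 2 (Asgr1 and Apoa1) higher in old HFD against young ND, with a median log2 fold change of -0.36, beside 12.9% of all genes lower and 17.3% higher there, and 0 passed in young HFD or old ND against young ND, with 3 and 2 at an unadjusted p under 0.05 and 0 and 1 by DESeq2. Asgr1 was also higher in old HFD against old ND, at 0.71 (adjusted p = 0.0341). Without the 4 mice richest in non-parenchymal markers, described next, Tat, Apoa1 and that Asgr1 difference were no longer called (adjusted p = 0.0885, 0.0632 and 0.118). Their log2 fold changes were then -0.65, 0.44 and 0.56, beside -0.78, 0.59 and 0.71 with all mice, and Cps1 was called lower in young HFD. The 5 old HFD calls were all lost without the 6 mice low in the clock output Dbp (adjusted p of 0.124 to 0.262), where 2 young ND mice were left, at log2 fold changes of -0.77 for Hnf4a, -1.03 for Cps1, -0.69 for Tat, 0.54 for Asgr1 and 0.79 for Apoa1, beside -0.73, -0.92, -0.78, 0.65 and 0.59 with all mice. Of 7 bile duct markers, Cftr, Epcam and Krt19 were at 3.92 CPM or less in every mouse, and 3 (Sox9, Slc10a2 and Spp1) were tested, with a summed level of all 7 of 47.5 to 144 CPM. Most of that sum was Slc10a2 alone, at group means from 52.4 (young ND) to 70.3 CPM (old ND). Of the 3 tested, Spp1 was higher in old HFD against young ND (17.9 against 4.79 CPM, adjusted p = 0.00659, beside 17.3% of all genes), and in old ND 0 passed, with 3 at an unadjusted p under 0.05 and 2 by DESeq2. Of 30 markers of macrophages, lymphocytes, endothelium and stellate cells, 27 were tested, and against young ND edgeR called 22 higher in old ND, 24 in old HFD and 3 in young HFD, beside 7.26%, 17.3% and 1.91% of all genes. In young HFD, however, 26 of the 27 were at an unadjusted p under 0.05 and 19 were called by DESeq2, with a median log2 fold change of 1.88, beside 2.97 in old ND and 2.73 in old HFD. Of all 13583 genes, 2885 were at an unadjusted p under 0.05 in young HFD against young ND, 3020 in old ND and 5749 in old HFD. DESeq2 called 1255, 1676 and 4675 of 13558 genes there. Against old ND edgeR called 0 of the 27 in old HFD, with 0 at an unadjusted p under 0.05 and 0 by DESeq2. The summed level of all 30 was 23.8 to 281 CPM for young ND, 70.0 to 708 CPM for young HFD, 175 to 2490 CPM for old ND and 127 to 1550 CPM for old HFD, and 4 mice (old ND 3 and 4, old HFD 4 and 6) stood apart with 1260 CPM or more. All 4 are of batch 2, so leaving them out also shifts the old groups towards batch 1. Dbp was at 2 CPM or less in 6 mice (young ND 1 to 4, old ND 3 and 4) and between 11.4 and 121 CPM in the other 18. The time of day at collection is not given in the sources used here. Without the 6 mice low in Dbp, only young ND 5 and 6 are left of their group, both of batch 2. Against young ND, calls over all genes then fell to 7 for young HFD, 134 for old HFD and 0 for old ND, of 15059 tested. With all mice they were 475, 4100 and 1155 of 13583. A call against young ND lost in that refit therefore says little about the gene itself. Each call of a bile acid gene is also given without these 4 or these 6 mice, both sets having been chosen after the data were seen. Among the 10 genes, the only call gained that way was Cyp2c70 in young HFD without the 4 mice. The part of these cells or of the clock in any result below was not tested, and in a bulk preparation fewer cells of a type and less RNA per cell cannot be told apart.

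Of the 10 genes, Abcb11, Cyp27a1 and Cyp8b1 passed the test in at least 1 comparison, and the 250 bases before their RefSeq start sites are shown because these are the genes the results turn on. RefSeq promoters (build GRCm38.p6) were matched for 7 of the 10 genes, and those of Cyp7a1, Baat and Slc27a5 were not in the table. All 3 sequences are written 5′ to 3′ on the gene's own strand, and capitals mark matches to an inverted repeat of AGGTCA with 1 base between the copies, the arrangement that FXR is known to bind as a dimer with RXR. The Abcb11 window is chr2:69342617-69342866 on the minus strand, the Cyp27a1 window chr1:74713285-74713534 on the plus strand and the Cyp8b1 window chr9:121916306-121916555 on the minus strand.
Abcb11: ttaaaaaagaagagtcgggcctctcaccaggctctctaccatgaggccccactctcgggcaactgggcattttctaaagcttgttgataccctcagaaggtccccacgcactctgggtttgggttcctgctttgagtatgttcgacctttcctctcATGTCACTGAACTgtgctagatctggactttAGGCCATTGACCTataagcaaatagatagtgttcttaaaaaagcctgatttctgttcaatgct
Cyp27a1: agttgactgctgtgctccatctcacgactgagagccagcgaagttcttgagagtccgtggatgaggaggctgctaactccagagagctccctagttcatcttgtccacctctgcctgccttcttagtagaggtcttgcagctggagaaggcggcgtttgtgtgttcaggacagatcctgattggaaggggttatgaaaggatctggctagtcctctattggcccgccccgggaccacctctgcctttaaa
Cyp8b1: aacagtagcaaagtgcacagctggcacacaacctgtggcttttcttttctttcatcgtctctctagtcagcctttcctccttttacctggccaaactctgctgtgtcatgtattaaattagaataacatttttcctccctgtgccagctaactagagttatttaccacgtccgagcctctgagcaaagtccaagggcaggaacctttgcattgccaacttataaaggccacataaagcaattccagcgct

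The Abcb11 promoter held the match AGGCCATTGACCT, with 1 mismatch, from position -63 before the start site, and ATGTCACTGAACT, with 2 mismatches, from position -94. Matches were searched from 250 bases before to 50 bases after each start, on both strands. Up to 2 mismatches were allowed in the inverted repeat, which 1.14% of 32851 promoters of the same length held at that tolerance and 0.00913% held exactly. The 6-base site AGGTCA, which lies inside the inverted repeat and was in 16.3% of promoters, matched in Abcb11 (inside its -63 repeat), Nr1h4, Slc10a1 and Cyp2c70. It was not in the windows of Cyp27a1, Cyp8b1 and Nr0b2. AAGGTCA, which contains the 6-base site (in 4.72% of promoters), and TTATGTAA, the site of DBP and its relatives (in 0.938%), were in none of the matched windows. A match of letters describes the sequence and shows no binding.

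Per kilobase of exon (GENCODE exons of GRCm38), Slc27a5 had the highest level in young ND, at 401 ± 37.7 CPM per kb (SD, n = 6), and its range did not overlap with the next gene. Cyp27a1 (302 ± 20), Slc10a1 (278 ± 14.2), Cyp2c70 (258 ± 63.5), Abcb11 (189 ± 17.9), Cyp8b1 (182 ± 24.8) and Baat (178 ± 31.6 CPM per kb) followed, each overlapping its neighbours in this order. A gap separated these 7 from the regulators Nr1h4 (50.2 ± 4.35) and Nr0b2 (35.6 ± 10.5 CPM per kb) and from Cyp7a1 (17.3 ± 6.15 CPM per kb), whose ranges again overlapped from one to the next. Slc27a5 was first in all 4 groups, but only in the 2 young groups was it clear of the next gene. In the deposited FPKM values the order was another one, with Cyp8b1 first (284 ± 36.0 FPKM in young ND) and Nr1h4 last (1.42 ± 0.163 FPKM). The cause of this difference in order was not tested. The 10 genes together drew 0.457% ± 0.015 of a young ND library, 0.405% ± 0.013 of a young HFD library, 0.367% ± 0.062 of an old ND library and 0.393% ± 0.056 of an old HFD library (SD, n = 6).

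**Figure D1:**
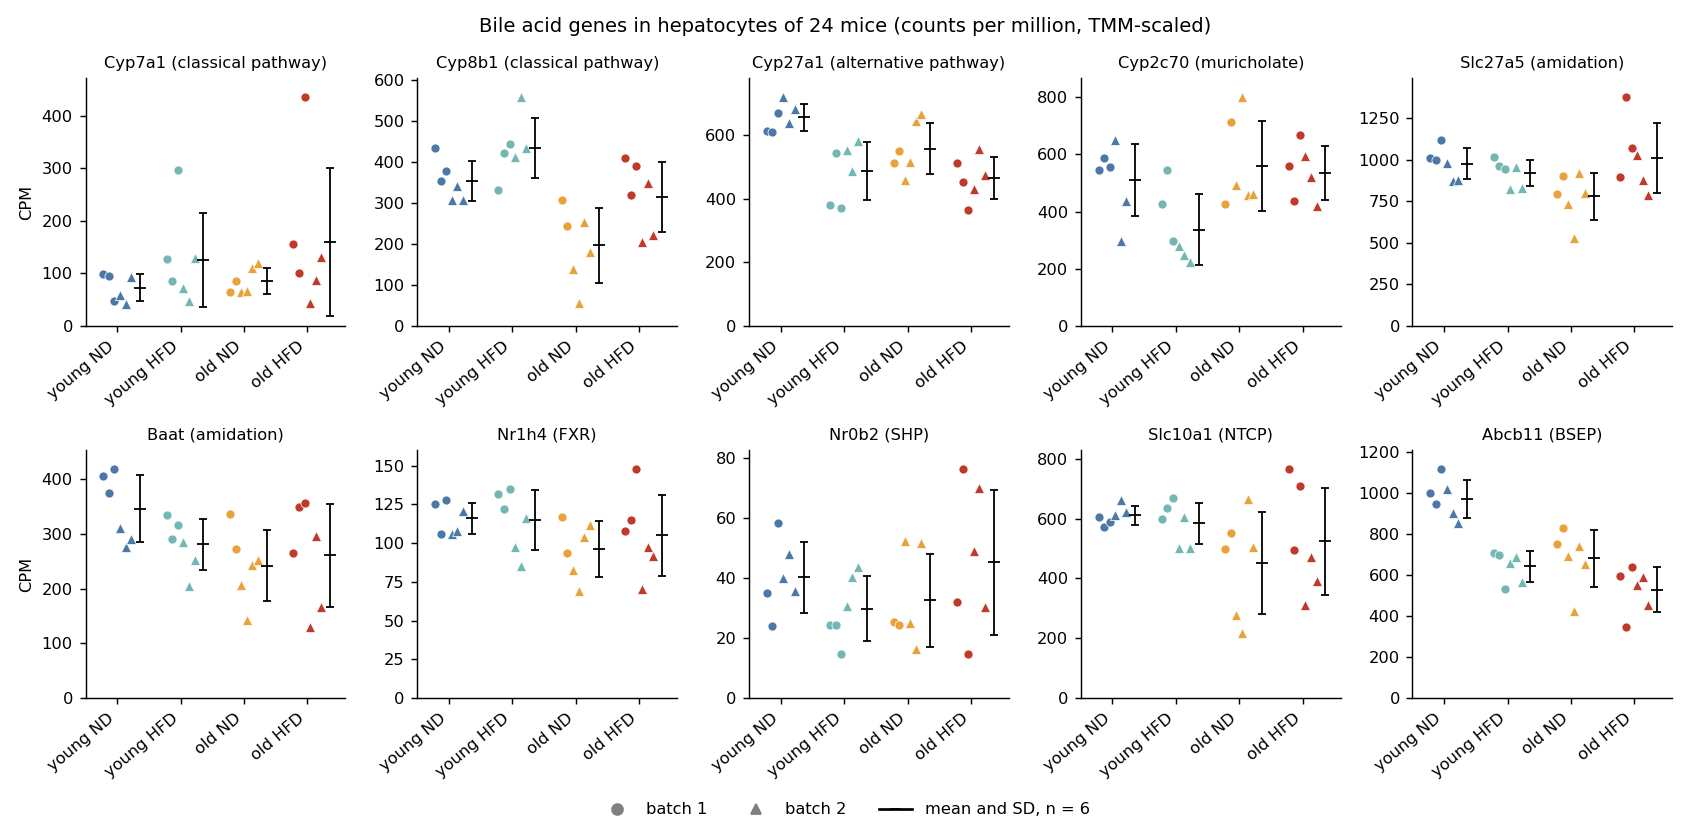
CPM (TMM-scaled, y axis from 0) of the 10 bile acid genes in each mouse, by group (x axis) and batch (circles batch 1, triangles batch 2), with the mean and SD of 6 mice. All young ND mice lie above all mice of the other 3 groups for Abcb11, at 857 CPM or more, and Cyp8b1 is lowest in old ND.

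Counted over the 5 comparisons of groups, no member passed the test in the upward direction and 2 passed it downward in each of 3 comparisons. Young HFD was lower than young ND in Abcb11 and Cyp27a1, 2 of 10 genes, where 1.59% of the 13583 genes tested were lower and 1.91% higher. Old ND was lower than young ND in Cyp8b1 and Abcb11, where 1.24% of all genes were lower and 7.26% higher. Old HFD was lower than young ND in Abcb11 and Cyp27a1, where 12.9% of all genes were lower and 17.3% higher. These 3 comparisons share the young ND mice and are not independent of each other. In old HFD against old ND, 0 of 10 passed edgeR's test (3 at an unadjusted p under 0.05, 1 by DESeq2), with 1.37% of all genes higher and 1.64% lower. In old HFD against young HFD, 0 passed it (2 at an unadjusted p under 0.05, 1 by DESeq2), with 1.82% of all genes higher and 0.42% lower. Over all genes, 2990 and 2848 of 13583 were at an unadjusted p under 0.05 in these 2 comparisons. DESeq2 called 1123 and 859 of 13558, and the counts of the 10 are near these shares. The median log2 fold change of the 10 was -0.19, 0.10, -0.35, -0.10 and -0.17 in young HFD vs young ND, old HFD vs old ND, old ND vs young ND, old HFD vs young HFD and old HFD vs young ND, beside 0.01, -0.01, 0.01, 0.01 and 0.04 over all genes tested.

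**Figure D2:**
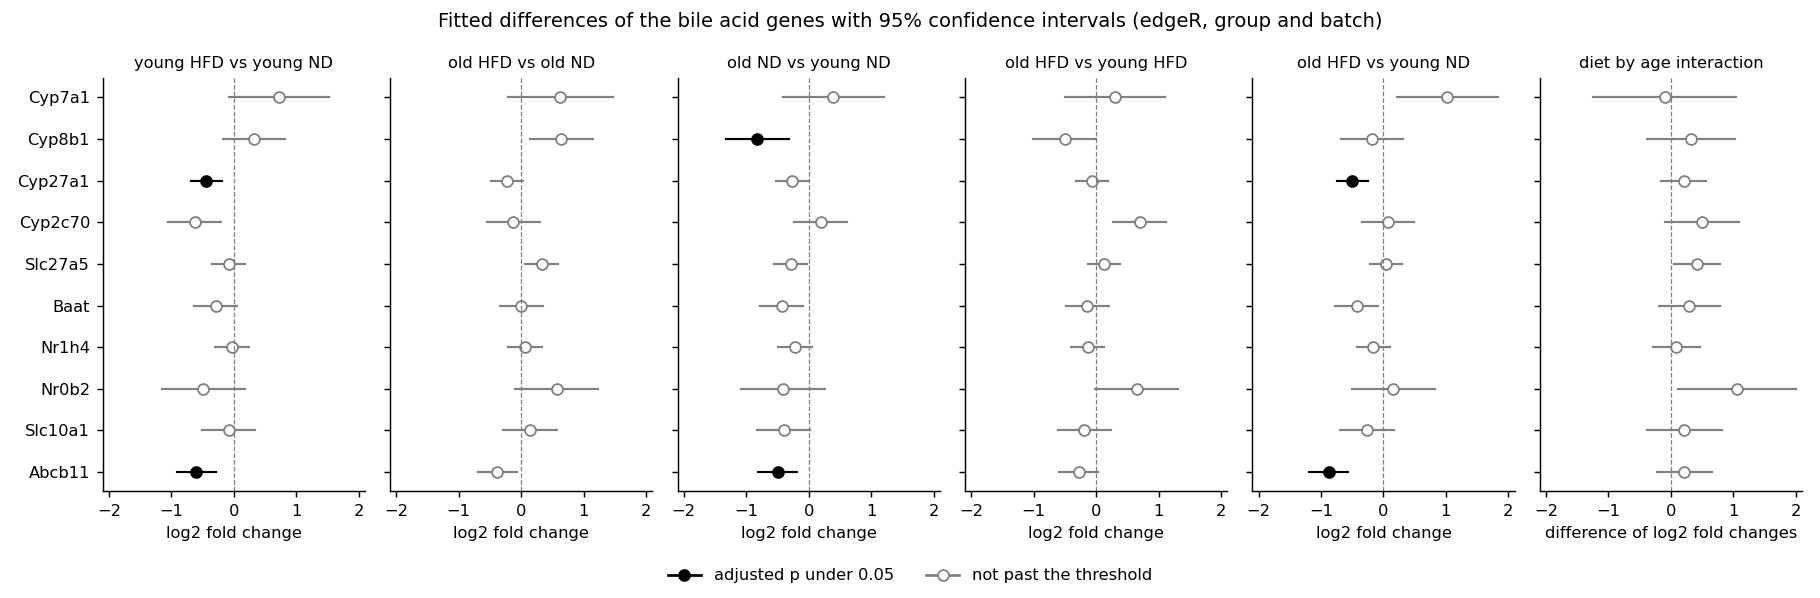
Log2 fold changes (x axis) of the 10 genes (y axis) in 5 comparisons and, in the last panel, the difference between the HFD effect in old and in young mice, with 95% confidence intervals from edgeR. Filled points passed the adjusted p of 0.05: Abcb11 in 3 comparisons, at -0.60, -0.50 and -0.88, Cyp27a1 in 2 and Cyp8b1 in 1, all below 0.

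Abcb11 encodes the bile salt export pump BSEP, which moves conjugated bile acids into the canaliculus (ENSMUSG00000027048, chr2:69238282-69342616, minus strand). Its level in young ND ran from 857 to 1120 CPM with a median of 976. In young HFD it ran from 531 to 711 CPM with a median of 674, so no young HFD mouse reached the lowest young ND mouse. Old ND ran from 424 to 830 CPM (median 719), and old HFD from 345 to 642 CPM (median 570). Every mouse of these 3 groups was below every young ND mouse, while the 3 groups overlapped among themselves. By edgeR's quasi-likelihood test (Benjamini-Hochberg), the log2 fold change against young ND was -0.60 ± 0.15 (SE, adjusted p = 0.0313) in young HFD, -0.50 ± 0.15 (adjusted p = 0.0414) in old ND and -0.88 ± 0.15 (adjusted p = 0.000435) in old HFD. The last of these corresponds to 0.544 times the young ND level. Within batches 1 and 2 the fold changes were -0.66 and -0.51 in young HFD, -0.35 and -0.56 in old ND and -0.98 and -0.79 in old HFD.

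The HFD difference in old mice was smaller in its estimate, at -0.38 (95% interval -0.69 to -0.07, adjusted p = 0.141), with 1 of 6 old HFD mice below all old ND mice. Without the 4 mice rich in non-parenchymal markers it was -0.49, beside -0.58 in young mice. Without the 6 mice low in Dbp it was -0.50, beside -0.48, so which age had the larger estimate depended on the mice included. Leaving out the 4 mice with the most non-parenchymal marker RNA gave -0.37 for old ND against young ND (adjusted p = 0.248), where the range over 13 alternatives was 0.0144 to 0.987. The same step left young HFD (-0.58, adjusted p = 0.0117) and old HFD (-0.86, adjusted p = 0.00105) past the threshold against young ND. Without the 6 mice low in Dbp, which leaves 2 young ND mice, no Abcb11 difference passed, at -0.48, -0.28 and -0.78 (adjusted p = 0.799, 0.987 and 0.0784). Few genes of any kind passed there (7, 0 and 134 of 15059), so these losses do not show that Abcb11 was unchanged. Adjusted p over all alternatives ran from 0.00215 to 0.799 in young HFD and from 4.26e-07 to 0.0784 in old HFD. The old HFD call held without any 1 mouse. The young HFD call was lost without each of 9 mice (young ND 1 to 5, young HFD 1, 3, 5 and 6), with adjusted p of 0.0531 to 0.0836. The old ND call was lost without each of 13 (young ND 1 to 6, young HFD 1 and 5, old ND 1, 2, 3, 4 and 6), with adjusted p of 0.052 to 0.111. Gm13613 and Gm13614 overlap Abcb11 on the other strand, and the handling of strand is not stated, so reads could be shared. These genes had 0 to 15 and 0 to 2 counts per mouse.

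Cyp27a1, the mitochondrial sterol 27-hydroxylase that opens the alternative route (ENSMUSG00000026170, chr1:74713574-74737892, plus strand), had a narrow spread in young ND, from 611 to 721 CPM (median 655). Young HFD lay between 372 and 583 CPM (median 516) and old HFD between 364 and 556 CPM (median 465). Neither HFD group overlapped with young ND. Old ND lay between them, from 460 to 667 CPM (median 533), and 4 of its 6 mice were below all young ND mice. Cyp27a1 was lower than in young ND by a log2 fold change of -0.44 ± 0.12 in young HFD (SE, adjusted p = 0.0486) and of -0.50 ± 0.12 in old HFD (adjusted p = 0.00528, edgeR, Benjamini-Hochberg). The old ND difference from young ND was -0.26 (95% interval -0.52 to -0.0055, adjusted p = 0.213), and old HFD differed from old ND by -0.24 (-0.49 to 0.02, adjusted p = 0.27). Old and young HFD mice differed by -0.06, with an interval of -0.31 to 0.20.

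Within batches 1 and 2 Cyp27a1 in young HFD was at -0.55 and -0.31 and in old HFD at -0.54 and -0.48 against young ND. The young HFD call sat at the threshold. Of the 24 refits that left out 1 mouse only those without young HFD 2, old ND 3, old ND 4 or old HFD 2 kept it, the other 20 giving adjusted p of 0.0503 to 0.166. Over the other alternatives it ran from 0.00808 to 0.799. The old HFD call was kept in all 24, and its adjusted p over the alternatives ran from 0.000726 to 0.221. Without the 4 marker-rich mice Cyp27a1 was at -0.43 (adjusted p = 0.0204) in young HFD and -0.43 (adjusted p = 0.0219) in old HFD, and without the 6 mice low in Dbp at -0.33 (adjusted p = 0.799) and -0.41 (adjusted p = 0.221). The old ND difference from young ND was -0.14 without the 4 mice and -0.05 without the 6.

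Cyp8b1, the sterol 12-alpha-hydroxylase that directs synthesis towards cholic acid (ENSMUSG00000050445, chr9:121914356-121916305, minus strand), was lowest in old ND. Its level there ran from 55.3 to 308 CPM (median 212), against 307 to 435 CPM (median 348) in young ND. Old ND mice 1 to 6 had 308, 244, 139, 55.3, 254 and 180 CPM, so mouse 1 alone reached into the young ND range. The log2 fold change of old ND against young ND was -0.82 ± 0.24 (SE, adjusted p = 0.0358, edgeR, Benjamini-Hochberg), or 0.566 times the young ND level. Young HFD mice had 333 to 560 CPM (median 428) and old HFD mice 204 to 410 CPM (median 335). Cyp8b1 in old HFD was thus near its young ND level, at a log2 fold change of -0.18 (95% interval -0.68 to 0.32, adjusted p = 0.598). Against old ND it was at 0.64 (0.14 to 1.14, adjusted p = 0.126), with 4 of 6 old HFD mice above all old ND mice, and against young HFD at -0.50 (-1.01 to -0.0031, adjusted p = 0.234). Without the 4 marker-rich mice these 2 differences were 0.53 and -0.29, and without the 6 mice low in Dbp 0.34 and -0.50.

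The old ND mice with the lowest Cyp8b1, 3 and 4, were also the 2 of that group with summed non-parenchymal markers of 1320 and 2490 CPM and Dbp under 2 CPM. Without the 4 marker-rich mice the Cyp8b1 log2 fold change of old ND against young ND was -0.51 (adjusted p = 0.112), and without the 6 mice low in Dbp it was -0.52 (adjusted p = 0.987), in a range of 3.19e-05 to 0.987 over 13 alternatives. It was -0.48 in batch 1 and -1.03 in batch 2. Leaving out 1 mouse ended the call for 7 mice (young ND 1, 3, 4, 5 and 6, old ND 2 and 3), with adjusted p of 0.0516 to 0.0804. With the replicate block used instead of batch it was -0.94 (adjusted p = 0.0171).

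**Figure D3:**
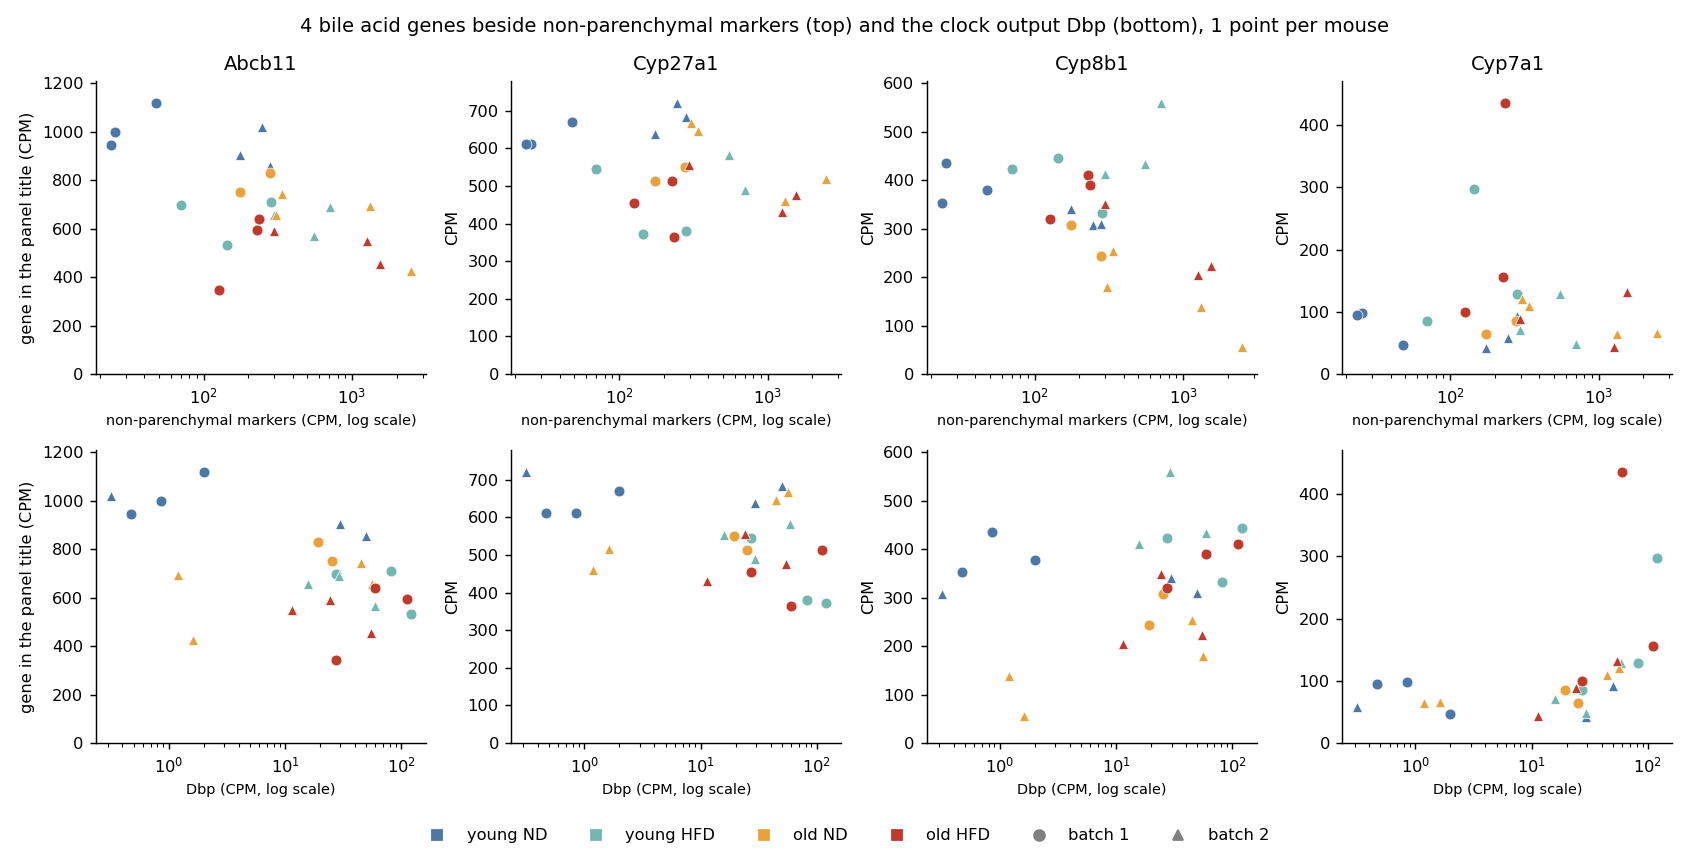
CPM of Abcb11, Cyp27a1, Cyp8b1 and Cyp7a1 (y axes) in each mouse against the summed CPM of 30 non-parenchymal markers (top, log axis) and the CPM of Dbp (bottom, log axis), coloured by group. The lowest Cyp8b1 values, 55.3 and 139 CPM, are in the old ND mice with markers of 2490 and 1320 CPM, and the highest Cyp7a1 values, 436 and 297 CPM, are in mice with Dbp of 59.7 and 121 CPM.

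Cyp7a1, the cholesterol 7-alpha-hydroxylase that limits the rate of the classical route (ENSMUSG00000028240, chr4:6265612-6275633, minus strand), was the most variable synthesis enzyme on HFD. Young ND ran from 42.6 to 98.4 CPM (median 75.5) and old ND from 64.8 to 120 CPM (median 75.5). Young HFD ran from 47.8 to 297 CPM (median 107) and old HFD from 44.2 to 436 CPM (median 116). All 4 groups overlapped, and the coefficient of variation was 70.8% and 88.2% in the HFD groups against 35.5% and 28.7% in young ND and old ND. Cyp7a1 did not pass edgeR's quasi-likelihood test (Benjamini-Hochberg) in any comparison. The log2 fold change was 0.72 in young HFD vs young ND (95% interval -0.08 to 1.53, adjusted p = 0.296) and 0.63 in old HFD vs old ND (-0.21 to 1.46, adjusted p = 0.38). Old HFD against young ND came nearest, at 1.02 ± 0.40 (SE, interval 0.21 to 1.84, adjusted p = 0.052), with 4 of 6 old HFD mice above all young ND mice.

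That Cyp7a1 difference lay at the threshold. DESeq2 with batch, DESeq2 size factors and the fit with no count filter called it, and so did edgeR without any 1 of 7 mice (young ND 6, young HFD 3 and 5, old ND 4, old HFD 2, 4 and 5), with adjusted p of 0.0244 to 0.0463. Over the 13 alternatives it ran from 3.16e-08 to 0.544. Its size hung on old HFD 3, at 436 CPM, without which it was 0.58 (adjusted p = 0.202), and the batches gave 1.5 and 0.45. In young HFD the mouse at 297 CPM was young HFD 3, without which the HFD estimate fell to 0.39. Old HFD against old ND was 1.58 in batch 1 and -0.02 in batch 2, and ran from 0.23 to 0.87 with 1 mouse left out. Without the 6 mice low in Dbp the difference from young ND was 0.42 in young HFD (adjusted p = 0.903) and 0.70 in old HFD (adjusted p = 0.544), and without the 4 marker-rich mice 0.75 and 1.25 (adjusted p = 0.241 and 0.0509). Of the clock outputs, Dbp itself was at 0.318 to 49.8 CPM for young ND, 15.8 to 121 for young HFD, 1.19 to 56.1 for old ND and 11.4 to 111 for old HFD, and Nr1d1 at 17.6 to 90.3, 50.7 to 81.1, 25.7 to 110 and 34.5 to 98.3 CPM. Among 15 clock genes, against young ND, 4 were lower and 0 higher in young HFD, and 5 were lower and 3 higher in old HFD, beside 1.59% lower and 1.91% higher of all genes in young HFD and 12.9% and 17.3% in old HFD. In old ND 1 of 15, Cry1, was lower (-1.32, adjusted p = 0.00951) and 0 higher, with 3 at an unadjusted p under 0.05, beside 1.24% and 7.26% of all genes. Over all genes 3020 of 13583 were at an unadjusted p under 0.05 there. Cry1 in old ND was lost without the 4 marker-rich mice (-1.47, adjusted p = 0.0544) and without the 6 mice low in Dbp (-0.46, adjusted p = 0.987). By count, 3 of 15 higher in old HFD is near the share of all genes. At an unadjusted p under 0.05 there were 11 of 15 in young HFD (7 called by DESeq2) and 9 in old HFD (8 by DESeq2). Over all genes these were 2885 of 13583 (1255 of 13558 by DESeq2) in young HFD and 5749 (4675 by DESeq2) in old HFD. Without the 4 marker-rich mice 4 were lower and 3 higher in young HFD, and 5 lower and 0 higher in old HFD. In either comparison 0 passed without the 6 mice low in Dbp, with 0 and 2 at an unadjusted p under 0.05, beside 7 and 134 calls over all genes. Dbp is 1 of the 15, and all 6 mice (young ND 1 to 4, old ND 3 and 4) are on ND. The 6 were thus chosen on a clock gene, so no conclusion on the clock genes is drawn from this refit.

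Cyp2c70, which makes muricholic acids in mice (ENSMUSG00000060613, chr19:40153353-40187333, minus strand), was lowest in young HFD. Young HFD ran from 224 to 546 CPM (median 288), against 297 to 649 CPM (median 550) in young ND, and 4 of 6 young HFD mice were below all young ND mice. Old ND ran from 428 to 802 CPM (median 479) and old HFD from 420 to 667 CPM (median 542), both at about the young ND level. No Cyp2c70 difference passed edgeR's quasi-likelihood test (Benjamini-Hochberg). The log2 fold change was -0.63 in young HFD vs young ND (95% interval -1.05 to -0.21, adjusted p = 0.0794) and 0.70 in old HFD vs young HFD (0.28 to 1.12, adjusted p = 0.066), and in the old HFD vs old ND comparison -0.12 (-0.54 to 0.30, adjusted p = 0.775). The young HFD difference passed without young HFD 2, the group's highest mouse at 546 CPM (adjusted p = 0.0376), without the 4 marker-rich mice (-0.62, adjusted p = 0.0462), with DESeq2 and batch, with no count filter and with only the groups compared. Without the 6 mice low in Dbp it was -0.37 (adjusted p = 0.823), and its adjusted p over the alternatives ran from 0.00872 to 0.823. The difference between the HFD groups passed without old ND 4 (adjusted p = 0.0394), with DESeq2 and batch and with no count filter, over a range of 0.00857 to 0.657. Cyp2c70 has neighbours of similar sequence in the Cyp2c cluster, and how reads shared among them were counted is not stated.

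Neither gene of amidation passed the test in any comparison. Slc27a5, the bile acid-CoA ligase that activates bile acids (ENSMUSG00000030382, chr7:12988346-12998192, minus strand), was at 978 ± 92.0 CPM on ND and 923 ± 79.3 CPM on HFD in young mice, and at 781 ± 141 and 1010 ± 210 CPM in old mice (SD, n = 6). Its differences were -0.08 in young HFD vs young ND, 0.33 in old HFD vs old ND (95% interval 0.07 to 0.59, adjusted p = 0.133) and -0.29 in old ND vs young ND (-0.55 to -0.03, adjusted p = 0.17). DESeq2 with batch called the old HFD vs old ND difference of Slc27a5 and edgeR did not. That difference was 0.24 without the 4 marker-rich mice and 0.21 without the 6 mice low in Dbp. The old ND difference of Slc27a5 from young ND was -0.17 and -0.13 in these refits. Baat, which joins the activated bile acid to taurine or glycine (ENSMUSG00000039653, chr4:49489422-49506557, minus strand), was at 346 ± 61.4 CPM on ND and 281 ± 47.0 CPM on HFD in young mice, and at 242 ± 65.1 and 261 ± 94.6 CPM in old mice (SD, n = 6). Against young ND it was at -0.43 in both old groups (old ND -0.78 to -0.09, adjusted p = 0.111, and old HFD -0.77 to -0.09, adjusted p = 0.0509). In old ND, 5 of 6 mice had less Baat than any young ND mouse. The old HFD difference of Baat from young ND passed without any 1 of 4 mice (old ND 4, old HFD 2, 3 and 5), with adjusted p of 0.0156 to 0.0448, and with DESeq2 and batch or no count filter. Without the 4 marker-rich mice it was -0.19 (adjusted p = 0.223) in old HFD and -0.30 (adjusted p = 0.221) in old ND, and without the 6 mice low in Dbp -0.41 (adjusted p = 0.338) and -0.28 (adjusted p = 0.987).

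The receptor Nr1h4 (FXR, ENSMUSG00000047638, chr10:89454234-89533585, minus strand) had the smallest differences of the 10 genes, with -0.22 as its largest log2 fold change. It was at 116 ± 10 CPM on ND and 115 ± 19.6 CPM on HFD in young mice, and at 96.3 ± 18.3 and 105 ± 26.2 CPM in old mice (SD, n = 6). The log2 difference with HFD was -0.03 (95% interval -0.29 to 0.24) in young mice and 0.06 (-0.21 to 0.33) in old mice, and old ND differed from young ND by -0.22 (-0.49 to 0.05, adjusted p = 0.34, edgeR's quasi-likelihood test). Nr0b2 (SHP, ENSMUSG00000037583, chr4:133553376-133556536, plus strand), which FXR is known to induce, had fewer counts and a wider spread. It ran from 24.0 to 58.5 CPM on ND and from 14.8 to 43.7 CPM on HFD in young mice, and from 16.3 to 52.4 and 14.7 to 76.5 CPM in old mice, with medians of 37.9, 27.7, 25.2 and 40.5 CPM. The estimates pointed down with HFD in young mice, at -0.49 (-1.15 to 0.17, adjusted p = 0.413), and up in old mice, at 0.57 (-0.11 to 1.24, adjusted p = 0.312). With 1 mouse left out they ran from -0.58 to -0.28 in young and from 0.25 to 0.74 in old mice. That estimate of Nr0b2 in young mice was -0.29 without the 6 mice low in Dbp and -0.48 without the 4 marker-rich mice, and that of Nr1h4 in old ND against young ND was -0.27 and -0.10.

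Slc10a1 encodes NTCP, the sodium-dependent pump that takes bile acids up from blood (ENSMUSG00000021135, chr12:80953183-80968705, minus strand). Young mice kept it in a narrow range, 572 to 663 CPM on ND (median 610) and 503 to 668 CPM on HFD (median 601). Old mice spread from 218 to 667 CPM on ND (median 502) and from 310 to 767 CPM on HFD (median 484). The coefficient of variation was 5.11% in young ND and 11.7% in young HFD, against 37.8% and 34.2% in the old groups. The lowest values, 218 and 278 CPM in old ND and 310 and 391 CPM in old HFD, were those of the 4 mice with the most non-parenchymal marker RNA. The old ND difference from young ND was -0.40 (95% interval -0.83 to 0.02, adjusted p = 0.256, edgeR, Benjamini-Hochberg) with these mice and -0.12 without them (adjusted p = 0.77), and it was -0.36 without the 6 mice low in Dbp, which include 2 of the 4 (adjusted p = 0.987), in a range of 0.139 to 0.996 over the alternatives. With HFD, Slc10a1 differed by -0.08 (-0.50 to 0.34) in young and by 0.14 (-0.29 to 0.57) in old mice.

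Whether HFD acted differently by age was tested as an interaction, the HFD difference in old mice minus that in young mice. Of the 13583 genes 0.0% passed edgeR's test, 1247 were at an unadjusted p under 0.05, and DESeq2 called 4 of 13558. Of the 10 genes 0 passed edgeR's test, with 2 at an unadjusted p under 0.05 and 0 by DESeq2. The 2 were Nr0b2, at 1.06 ± 0.46 (SE, interval 0.11 to 2.01, adjusted p = 0.531), and Slc27a5, at 0.41 ± 0.18 (0.04 to 0.78, adjusted p = 0.531). For Nr0b2 the interaction was 1.54 in batch 1 and 0.55 in batch 2, and for Slc27a5 0.44 and 0.33. With no count filter the Nr0b2 interaction was called, at 1.02 (adjusted p = 0.000632), in a fit that called 587 of 32336 genes, and its adjusted p over the alternatives ran up to 1.0. For the genes that passed a comparison the interaction was 0.22 (-0.22 to 0.65) for Abcb11, 0.20 (-0.16 to 0.56) for Cyp27a1 and 0.32 (-0.39 to 1.03) for Cyp8b1, so a difference between ages in the HFD effect was not shown for them.

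Since SHP is known to repress Cyp7a1, the 2 genes were compared mouse by mouse after group and batch means were removed. Across 24 mice, Pearson's r was -0.586 (permutation p = 0.0114, adjusted over 6 pairs 0.0684) and Spearman's rho -0.537 (permutation p = 0.0143, adjusted 0.0858). Mice with less Nr0b2 than their group tended to have more Cyp7a1, but neither measure passed the adjustment. Young HFD 3 and old HFD 3, the mice highest in Cyp7a1, had the lowest Nr0b2 of their groups, at 14.8 and 14.7 CPM. Without the 2 mice farthest from the median of Cyp7a1, r was -0.395. Within batches it was -0.838 in batch 1 (11 mice) and -0.25 in batch 2 (13 mice). The other 5 pairs (Nr0b2 with Cyp8b1, Abcb11 and Nr1h4, Cyp7a1 with Cyp8b1, and Slc27a5 with Baat) had r between -0.134 and 0.35 and adjusted p of 0.666 or more.

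**Figure D4:**
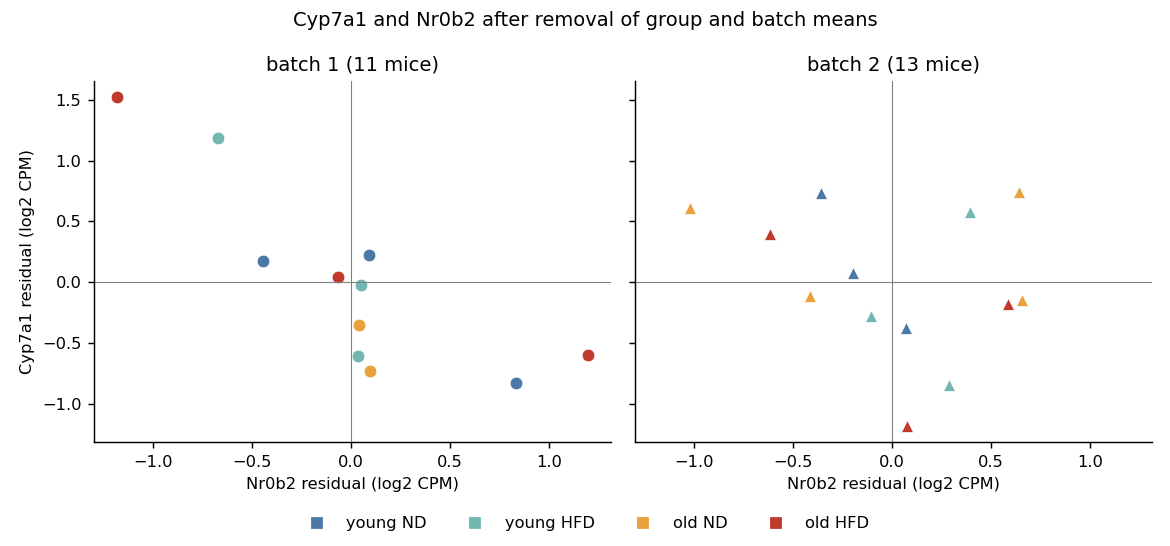
Residuals of log2 CPM of Cyp7a1 (y axis) against Nr0b2 (x axis) after removal of group and batch means, 1 point per mouse coloured by group, with batch 1 (11 mice) and batch 2 (13 mice) in separate panels. The points fall from upper left to lower right in batch 1 (r -0.838) and scatter in batch 2 (r -0.25).

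The genes most like each regulated step were found by Pearson correlation of log2 CPM over 24 mice after batch means were removed, as a description without a test, since all genes of a mouse share its library. For Cyp8b1 these were Slc25a20, the mitochondrial carnitine-acylcarnitine carrier (r = 0.929), Retsat, retinol saturase (r = 0.91), and Ei24 (r = 0.904). Retsat averaged 450 and 551 CPM in young mice on ND and HFD and 213 and 358 CPM in old mice, and Cyp8b1 354, 434, 197 and 316 CPM in the same order, and both were highest in young HFD and lowest in old ND. For Cyp7a1 they were Coq10b (r = 0.785), Upp2, a uridine phosphorylase of liver (r = 0.782), and Nmrk1 (r = 0.77). For Nr0b2 they were Ten1 (r = 0.704), Rabggtb (r = 0.69) and Arl4a (r = 0.69), which are looser likenesses than those of Cyp8b1.

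Around the 10 genes, 42 further genes of bile acid synthesis, its regulation and transport were listed, and 37 were tested. The 5 not tested were Ch25h, Gpbar1, Slc51a and Slc51b, at 1.34 CPM or less in every mouse, and Fgf15, a hormone of the intestine, with 0 counts. With HFD in young mice, 1 of 37 was lower and 0 higher, beside 1.59% and 1.91% of all genes: Atp8b1, the canalicular phospholipid flippase, fell from 51.1 ± 5.18 to 34.7 ± 5.45 CPM (SD, n = 6), a log2 fold change of -0.56 ± 0.14 (SE, adjusted p = 0.0349, edgeR, Benjamini-Hochberg). In old mice on HFD 2 of 37 were higher and 0 lower than on ND, beside 1.37% and 1.64% of all genes. These were Slc27a2, a fatty acid and bile acid intermediate CoA ligase of peroxisomes and endoplasmic reticulum, from 808 ± 209 to 1400 ± 203 CPM (0.77 ± 0.15, adjusted p = 0.00761), and Slco1b2, the sodium-independent uptake carrier, from 1120 ± 171 to 1740 ± 549 CPM (0.60 ± 0.17, adjusted p = 0.0487).

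Old ND was lower than young ND in 3 of the 37 and higher in 0, beside 1.24% and 7.26% of all genes. Abcg2, a canalicular exporter, was at 63.4 ± 10.8 against 104 ± 17.1 CPM (SD, n = 6, log2 fold change -0.66 ± 0.13, adjusted p = 0.00445). Abcd3, which carries bile acid intermediates into peroxisomes, was at 501 ± 162 against 781 ± 31.3 CPM (-0.61 ± 0.19, adjusted p = 0.0446). The other was Scp2, the peroxisomal thiolase of side chain shortening (-0.54 ± 0.17, adjusted p = 0.0493), named after its value was seen. Between old HFD and young HFD 0 of 37 passed, with 7 at an unadjusted p under 0.05 and 1 by DESeq2. Over all genes these were 2848 of 13583 and 859 of 13558. Old HFD was lower than young ND in 9 of 37 and higher in 0, where 12.9% of all genes were lower and 17.3% higher. These were 3 of 7 canalicular genes (the flippase Atp8b1, Abcc2 and Abcg2) and 2 of 5 uptake genes. They also included 2 of 9 regulators, 1 of 2 basolateral exporters and 1 of 14 synthesis enzymes. The smallest adjusted p were those of Atp8b1 (-0.63 ± 0.14, adjusted p = 0.00298) and Ephx1, which takes part in sodium-dependent bile acid uptake (-1.04 ± 0.25, adjusted p = 0.00375). The medians of the 37 were -0.04, 0.11, -0.31, -0.23 and -0.15 in the same order of comparisons as for the 10 genes above. In the interaction 0 of 37 passed (2 at an unadjusted p under 0.05, 0 by DESeq2), beside 1247 of 13583 and 4 of 13558 over all genes at the latter 2. Without the 4 marker-rich mice the 3 calls in old ND were lost (adjusted p of 0.0599 to 0.118). They were then at -0.60 (Abcg2), -0.39 (Abcd3) and -0.37 (Scp2). In that refit 94 of 13593 genes were called in old ND, 86 of them higher, beside 1155 of 13583 with all mice. Slco1b2 was also lost in old HFD against old ND (0.56, adjusted p = 0.0979), and 7 of 37 were lower and 1 higher in old HFD against young ND. Atp8b1 in young HFD was kept (-0.54, adjusted p = 0.0197), and Slc27a2 and Nr1i3 were added there as higher. Without the 6 mice low in Dbp 39 further genes were tested, and of these calls only Slc27a2 in old HFD against old ND (0.58, adjusted p = 0.0457) and Ephx1 in old HFD against young ND (-1.29, adjusted p = 0.0462) were kept. Of the lost calls in old HFD against young ND, Hnf4a (-0.77), Abcd3 (-0.73), Abcc3 (-0.59) and Abcc2 (-0.64) were about as far from young ND as in all mice (-0.73, -0.57, -0.58 and -0.66) or farther, and Atp8b1 (-0.46) and Abcg2 (-0.27) were nearer to it. Nr1i2 (-0.41) and Slco1a1 (-1.36) were a little nearer to it than in all mice (-0.45 and -1.60). In old ND Abcd3 (-0.55), Scp2 (-0.53) and Abcg2 (-0.48) were at -0.61, -0.54 and -0.66 in all mice. Atp8b1 in young HFD went from -0.56 to -0.36 and Slco1b2 in old HFD against old ND from 0.60 to 0.48.

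**Figure D5:**
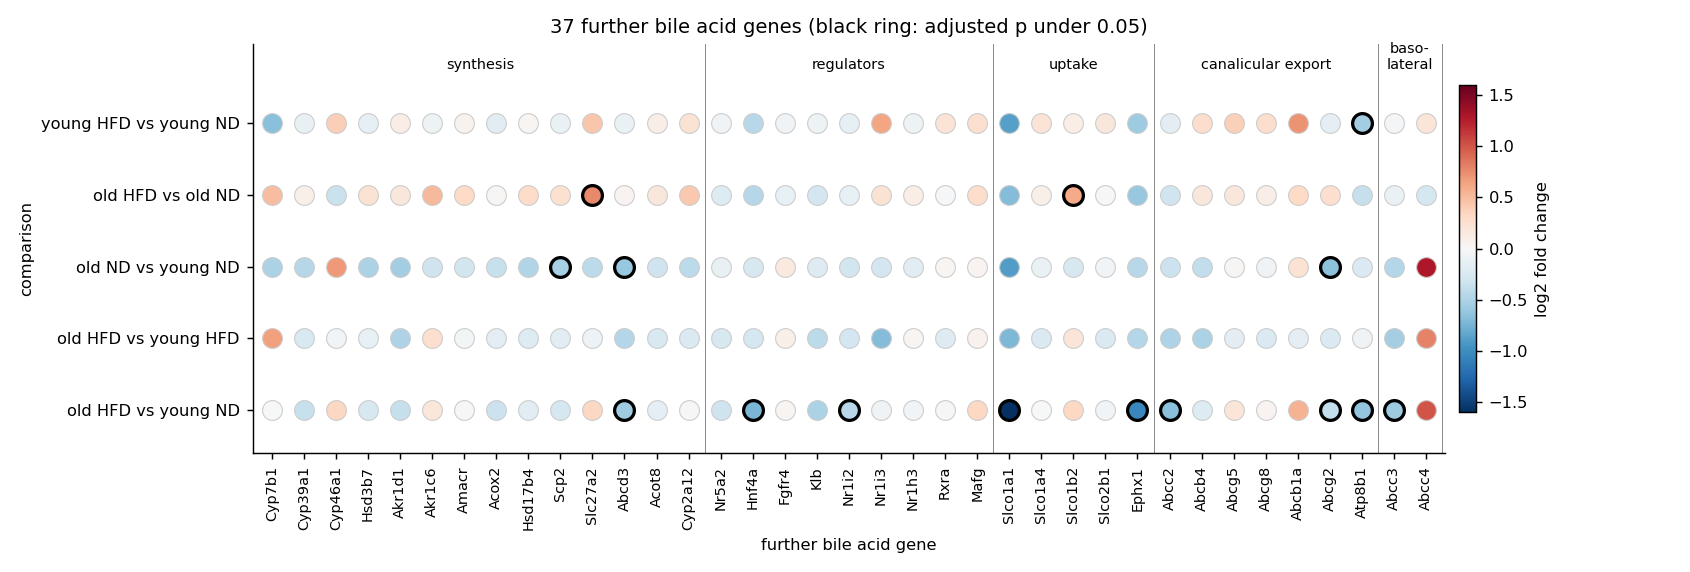
Log2 fold changes (colour) of the 37 further bile acid genes tested (x axis, grouped by role) in 5 comparisons (y axis), where a black ring marks an adjusted p under 0.05. Rings are most frequent in old HFD vs young ND, with 9, all below 0.

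Hepatocytes differ along the lobule, and markers of its zones were counted in the same way. Against young ND, 2 of 9 pericentral markers were higher in young HFD, 4 were higher and 1 lower in old HFD, and 3 of 8 periportal markers were lower in old HFD, where 17.3% of all genes were higher and 12.9% lower (1.91% and 1.59% in young HFD). The 1 of 9 lower is near the share of all genes. In old ND 1 of 9 pericentral markers, Slc1a2, was higher (0.82, adjusted p = 0.0409), near the 7.26% of all genes higher there. None of these zonal calls was kept without the 6 mice low in Dbp, which leaves 2 young ND mice, though in old HFD Etnppl (-2.17 in all mice, -2.51 without the 6), Hal (-1.02 and -1.06), Cyp2f2 (-0.90 and -0.97) and Cyp1a2 (-0.94 and -0.92) differed from young ND by about as much or more. Glul in young HFD went from 1.14 to 0.72, and in old HFD Oat from 1.12 to 0.65 and Lhpp from 0.91 to 0.45. In that refit 3 pericentral markers were at an unadjusted p under 0.05 in young HFD, 3 in old HFD and 0 in old ND, and 5 periportal markers in old HFD. Of all 15059 genes tested in it, 922 were at that level in young HFD, 3145 in old HFD and 534 in old ND. Without the 4 marker-rich mice Slc1a2 in old ND (0.81, adjusted p = 0.0877) and Cyp2f2, periportal, in old HFD (-0.85, adjusted p = 0.0896) were lost. Both stayed about as far from young ND as in all mice. In that refit 3 pericentral differences were gained, Oat in young HFD against young ND and Glul and Slc1a2 in old HFD against old ND. Glul, glutamine synthetase of the cells next to the central vein, was at 354 ± 44.5 CPM on ND and 843 ± 304 CPM on HFD in young mice, and at 543 ± 261 and 1310 ± 923 CPM in old mice (SD, n = 6). Their part in the bile acid gene results was not tested.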

How the data were processed

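Reads per gene were deposited by the authors as whole-number counts, made with STAR (2.7.3a, 2-pass, mm10, Gencode), SAMtools filtering and HTSeq (0.11.2), without normalization. A table of FPKM values from CuffLinks was deposited too, and its name alone says that ComBat adjusted it for batch. Handling of strand, duplicates and multiply mapped reads is not given in the sources used here. Each mouse was assigned to its group, number and batch from its labels, and 0 columns lacked a sample. PCR-amplified reads without molecular identifiers make counting error a lower limit.

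Counts were tested with edgeR 4.0.16 (R 4.3.3): TMM, filterByExpr by group, all 24 mice in 1 model with group and batch, quasi-likelihood F tests, and Benjamini-Hochberg adjustment over 13583 genes at 0.05. CPM values are TMM-scaled, and fold changes carry the model's SE and 95% interval. The test was checked on simulated counts. Correlations used residuals of log2 CPM (prior count 2) and 100000 permutations within group and batch, two-sided. Alternatives were DESeq2 1.42.0, its size factors, no count filter, no batch term, replicate block, only the groups compared, limma 3.58.1 on log2(FPKM + 1) or log2(FPKM + 0.1), batches alone, each mouse left out, and 2 sets of mice left out. No mice were stated to be pooled, and groups are of separate mice by their titles.

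The 10 genes and all lists were chosen with earlier results of these data known. Named were all 10 genes, the 2 further genes with the smallest adjusted p below 0.05 in each comparison, and the 3 genes most correlated with Cyp7a1, Cyp8b1 and Nr0b2. Gene positions are from GENCODE vM21 (GRCm38, the mm10 build) and promoters from RefSeq. Tables were made in Python 3.11.15 (pandas 2.3.3, scipy 1.17.1, numpy 2.4.6) and figures with matplotlib 3.10.9.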

Additional observations from a re-analysis of the deposited data

Results flagged for a closer look

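Old ND 4 stood apart from its group in Abcb11. It was at 424 CPM, while the other 5 old ND mice were at 656 to 830 CPM, and on the log2 scale its gap to the nearest mouse was 0.649 of the group's whole range, past the limit of Dixon's test for 6 samples. Of 40 sets of 6 mice tested (10 genes in 4 groups) this was the only 1 past the limit, and chance passes it in about 1 of 20. The same mouse had the lowest Cyp8b1 (55.3 CPM), Slc10a1 (218 CPM), Slc27a5 (531 CPM) and Alb (29000 CPM) of all mice, the highest summed non-parenchymal markers (2490 CPM) and Dbp at 1.63 CPM, and their part in the Abcb11 value was not tested. Without it, Abcb11 in old ND against young ND was at a log2 fold change of -0.39 (adjusted p = 0.111, edgeR).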

How the results depend on the processing

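In young HFD vs young ND, with 2 genes lower, 1 was lower with DESeq2 size factors, 3 with DESeq2 and batch, 4 with only the groups compared, 3 without the 4 marker-rich mice and 1 with limma at either pseudocount. With no count filter 4 passed there, 3 lower (Cyp2c70, Abcb11 and Nr0b2) and 1 higher (Cyp7a1), and Cyp27a1 was lost. It was 0 without batch, with limma and no filter, in batch 1 or batch 2 alone and without the 6 mice low in Dbp, and 0 to 3 when 1 mouse was left out. For old HFD vs old ND, with 0, DESeq2 with batch gave 1 and no count filter 3, all higher, and leaving out 1 mouse 0. For old ND vs young ND, with 2, no count filter, only the groups compared and limma on log2(FPKM + 0.1) gave 1, and no batch term, limma on log2(FPKM + 1) with and without its filter, each batch alone, the 4 marker-rich mice left out and the 6 mice low in Dbp left out gave 0, and leaving out 1 mouse 0 to 2. It was 0 there without each of young ND 1, 3, 4, 5 and 6, and old ND 2 and 3. For old HFD vs young HFD, with 0, DESeq2 with batch gave 1 higher and no count filter 3, of which 2 were higher and 1 lower, and leaving out 1 mouse 0 to 1. For old HFD vs young ND, with 2, DESeq2 size factors gave 3, 2 lower and 1 higher (Cyp7a1), DESeq2 with batch and no count filter gave 4, in both 3 lower and 1 higher (Cyp7a1), batch 1 alone 1, and batch 2 alone and the 6 mice left out 0, and leaving out 1 mouse 2 to 4. For the interaction, with 0, no count filter gave 1 (Nr0b2, higher), and leaving out 1 mouse 0. The fits within 1 batch and without the 6 mice hold fewer samples, and the other causes were not tested.

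Groups share replicate numbers that belong to different mice. Deviations from the group means correlated at 0.182 on average over 36 same-numbered pairs (-0.32 to 0.551) and at -0.037 over other pairs, and 6 of 24 mice correlated best with their own number, so the numbers were not taken as pairs. With the replicate block in place of batch, 1, 0, 2, 0, 2 and 0 genes passed in the order above, and Cyp27a1 was lost in young HFD vs young ND (adjusted p = 0.054).

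Of 2210 refitted values of single genes, 2090 kept direction and side of the threshold or were not past it in either fit, 86 were lost, 34 were gained, and 0 reversed a call. Counting error was below the spread between mice for all 10 genes. For Nr0b2, with 182 to 996 counts per mouse, it was at most 7.41%, against a coefficient of variation of 29.5% or more within each group.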
